A study of Rattus norvegicus with 36 samples.

Results

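In the nucleus accumbens of 9 rats, 16 genes had 2 expression levels, high in some animals and low in the others, with no animal in between. A gene was taken as having 2 expression levels when the 9 rats of the study could be cut into a high and a low set of at least 2 rats each, with a clear gap between them. Counts were summed over the technical replicates of each rat and expressed as CPM (the rat's counts scaled to a common total). The gap ratio of a gene is its lowest high value divided by its highest low value, both as CPM + 0.1. A gap ratio of at least 4 and a lowest high value of at least 0.5 CPM were required. Of 32402 gene identifiers, 15196 reached 0.5 CPM in at least 2 rats and so could meet the second condition, and 16 met both (0.105% of 15196). The selection also set aside 1 further identifier that met the conditions. Since the members were chosen by these measured values, the gap itself is a description and no test is attached to it.

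The nucleus accumbens, the ventral part of the striatum, receives dense dopamine input from the midbrain and is studied for its part in reward and drug seeking. In conditioned place preference an animal learns to link a compartment with a drug, and its later preference for that compartment is taken as the measure of learning. A bulk RNA sample of this tissue mixes neurons, glia and vascular cells, so for every gene below fewer cells of a type and less RNA per cell cannot be told apart.

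All rats were 8-week-old animals of the outbred Sprague-Dawley stock, in 3 groups of 3 named by their labels. Saline rats had 4 injections of physiological serum, 15 days of withdrawal and 1 further serum injection. CPPE rats, called dependent in the labels and described in the series title as expressing the preference, had 4 cocaine injections, 15 days of withdrawal and 1 injection of cocaine at 5 mg/kg. The nCPPE rats, called non dependent, had the same cocaine schedule and did not express the preference. Both schedules ended in a place preference test of 18 min, and the series text adds an extinction phase of 12 days. The sources used here do not give the animals' sex, the dose used in conditioning or how preference was scored. The tissue is labelled nucleus accumbens, while the extraction protocol also speaks of the caudate putamen. The identifiers come without gene names, and 0 of 32402 matched the RefSeq table used here (assembly GRCr8), so neither the tissue label nor the function or position of a member could be checked against named genes.

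Each rat had 27724289 to 39067715 counts over its 4 technical replicates. A value of 0 in a rat allows up to 3 counts, which is 0.0768 to 0.108 CPM over the 9 totals, for counting error only. Saline 2 stood apart from all other rats, with 18351 genes detected beside at least 19023 elsewhere and a score of 116.0 on the first component beside -24.8 to -2.11. Its share is therefore given for the selection, the shared pattern and the tests, but not for every count. With Saline 2 left out and the same conditions applied to the other 8 rats, 16 genes met them again. A gap ratio cannot fall when a rat is left out, so the selection itself fixes which members remain. These were 14 of the original 16, and in the other 2, ENSRNOG00000015418 and ENSRNOG00000054418, only 1 rat was left on a side.

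The technical replicates enter the sums that chose the genes, so they describe the counting error of the gap and do not test it. In 16 of 16 genes every technical replicate of every high rat lay above every technical replicate of every low rat. In single technical replicates, however, 26 of 64 gap ratios were under 4. Only 3 of the 16 genes met the conditions in each of the 4 technical replicates alone, and 2 met them in none. Over the summed counts gap ratios ran from 4.05 to 18.5. In ENSRNOG00000029386 all low rats were at 0 counts, in 6 further genes at least 1 low rat was at 0, and in 9 genes every low rat had counts. Read support at the high level was modest. The thinnest was 16 counts, in CPPE 1 for ENSRNOG00000019050, and the largest was 548 counts, in nCPPE 2 for ENSRNOG00000010079.

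**Figure D1:**
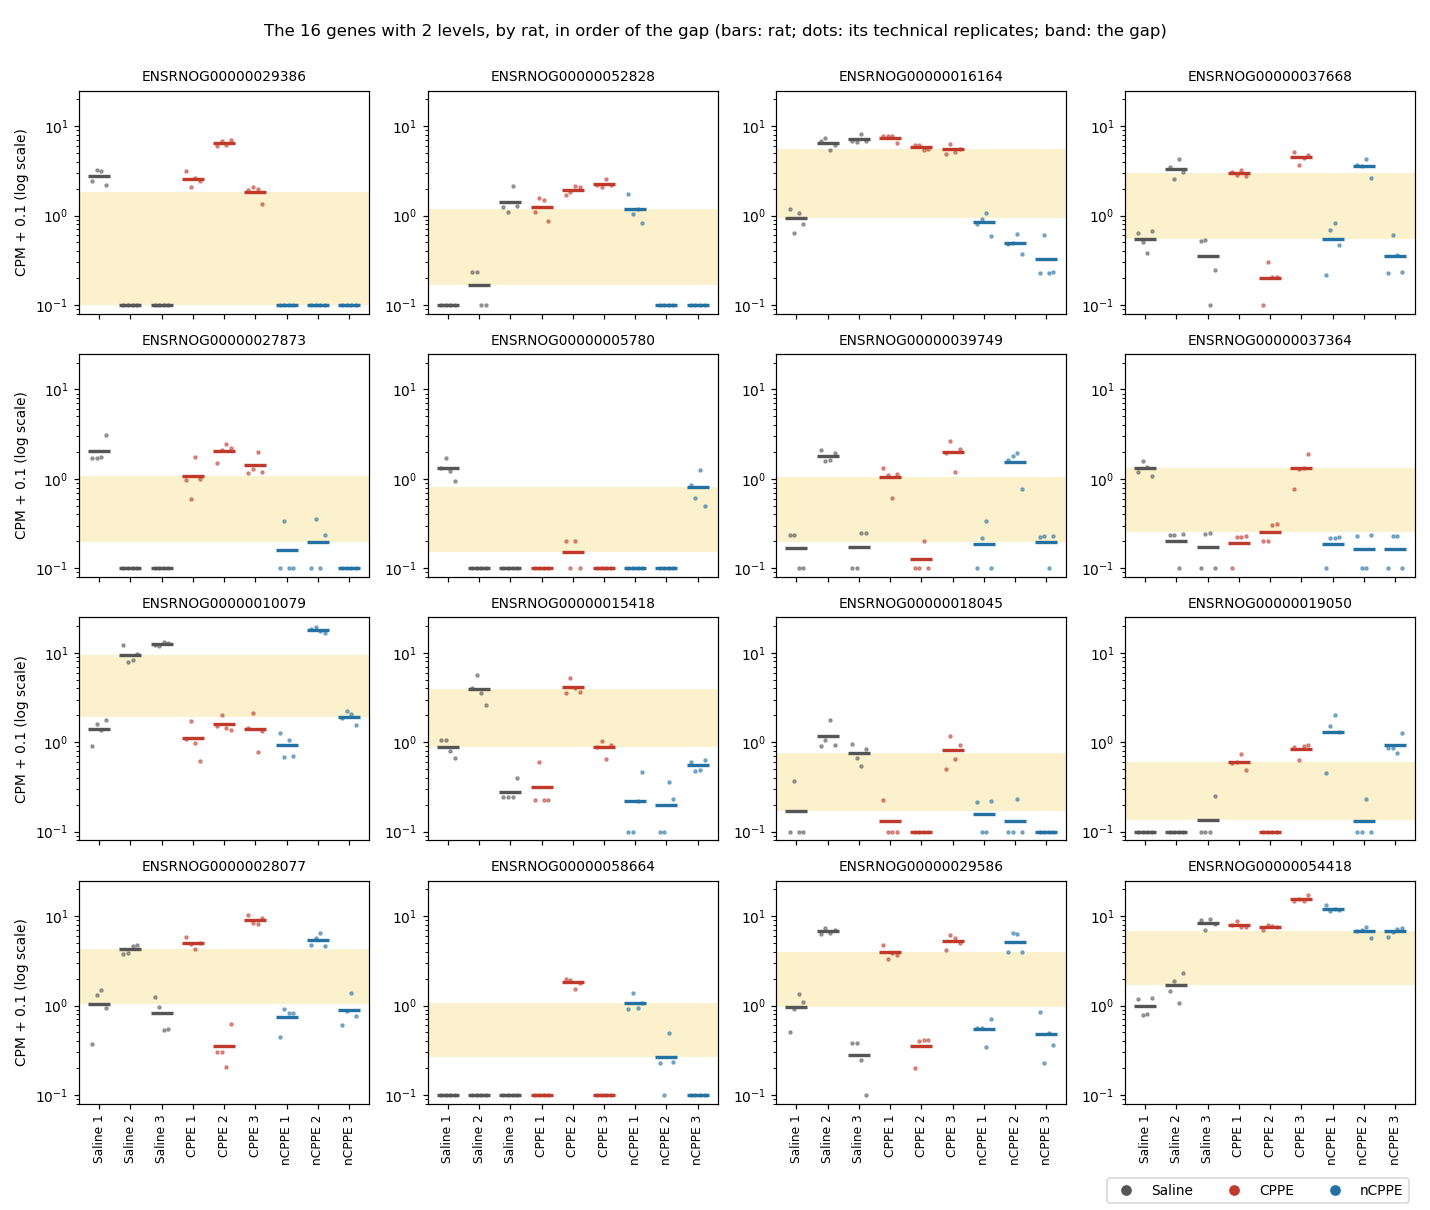
CPM + 0.1 on a log axis for each of the 16 genes in each of the 9 rats, ordered by gap ratio; bars are rats, dots their 4 technical replicates, and the shaded band is the gap. In every panel the dots of high rats lie above those of low rats, and the gap ratio falls from 18.5 in the first panel to 4.05 in the last.

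The high and low rats were spread over all 3 groups. Both levels occurred among the Saline rats in 14 of the 16 genes, among the CPPE rats in 9 and among the nCPPE rats in 9, and 4 genes had both levels in all 3 groups. No gene parted the Saline rats from the 6 cocaine rats, and none set the CPPE rats or the nCPPE rats apart from all others. A share over all tested genes was counted only for Saline against cocaine rats and is given below. These counts are therefore a description and not a trait of the members. All CPPE rats were high in 5 genes and all low in 2. All nCPPE rats were low in 6 genes and all high in 1. The Saline rats were all low in 2 genes and all high in 0.

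Single rats differed in how often they were high. CPPE 3 was high in 12 of the 16 genes and CPPE 1 in 10, followed by Saline 2 with 8, CPPE 2 with 7, nCPPE 2 with 6 and Saline 3 with 5. Saline 1 and nCPPE 1 were high in 4 genes each and nCPPE 3 in 3. Over the 9 pairs of rats from the same group, the median number of genes at the same level was 9, and over the 27 pairs from different groups it was 8. The pair most often at the same level was CPPE 1 with CPPE 3, in 14 genes, and the next was nCPPE 1 with nCPPE 3, in 13. The pairs of Saline 1 with Saline 2 and of Saline 2 with nCPPE 1 agreed least, in 4 genes each. Genes that share a pattern of rats weigh several times in these numbers.

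**Figure D2:**
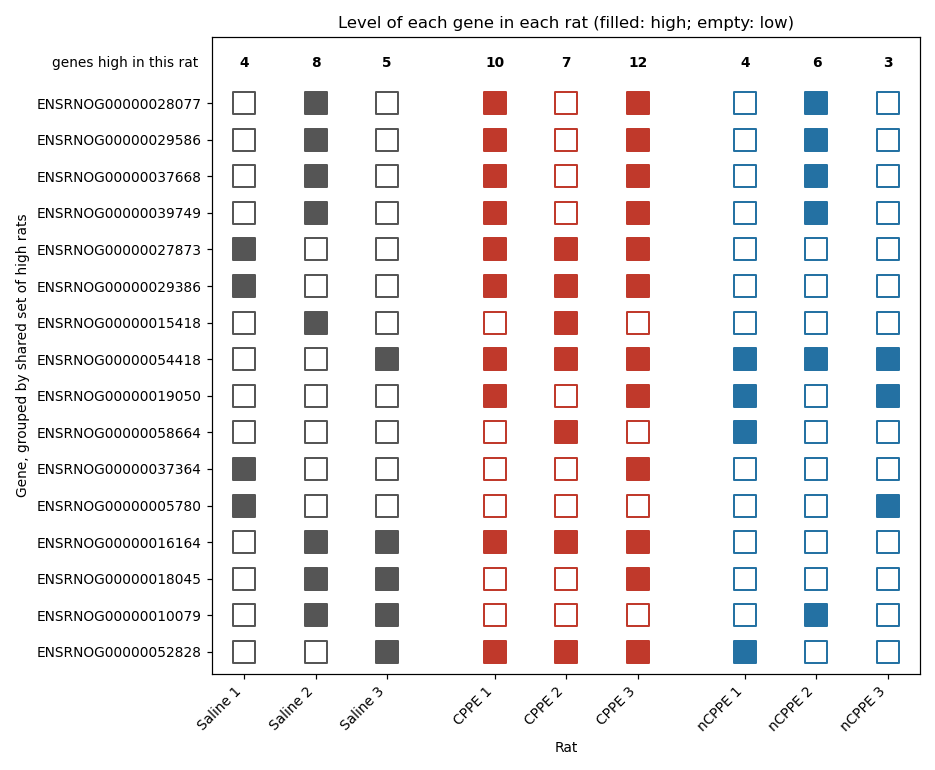
The level of each of the 16 genes (rows) in each of the 9 rats (columns), filled for high and empty for low, with the number of genes high in each rat on top. The filled squares run from 3 in nCPPE 3 to 12 in CPPE 3, and no row is filled in 1 whole group and empty everywhere else.

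In 3 genes all CPPE rats were high and all nCPPE rats low, while no gene had the reverse. By rank alone, CPPE rats lay wholly above nCPPE rats in 3.38% of the 15555 tested genes and wholly below in 3.9%. The members were chosen for gaps between rats, so no group effect is read from these 3 genes. ENSRNOG00000016164 had 7.34, 5.73 and 5.40 CPM in CPPE 1, 2 and 3, and 0.741, 0.392 and 0.225 CPM in nCPPE 1, 2 and 3. Saline 1 was at 0.829 CPM, with the nCPPE rats, while Saline 2 and Saline 3 were at 6.35 and 7.03 CPM, with the CPPE rats. The lowest high rat, CPPE 3, was thus 6.50-fold above the highest low rat, Saline 1, on CPM without an offset. These values rest on 160 to 234 counts in the high rats and 7 to 25 in the low ones.

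The other 2 of these genes shared a pattern in which the Saline rats lay the opposite way round. In ENSRNOG00000029386 the high rats were CPPE 1, 2 and 3, with 79, 248 and 52 counts, and Saline 1, with 77, while Saline 2, Saline 3 and all nCPPE rats were at 0. This is 2.48, 6.35, 1.75 and 2.66 CPM in the 4 high rats. Taking 3 counts in a single rat as the limit of a 0, the lowest high rat was at least 16.2-fold higher than any low rat. The high rats of this gene were themselves uneven, with CPPE 2 at 3.62 times CPPE 3, which is wider than in any other member.

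ENSRNOG00000027873 was at 0.972, 1.97 and 1.32 CPM in CPPE 1, 2 and 3 and at 1.97 CPM in Saline 1. It had 2, 3 and 0 counts in the nCPPE rats, and 0 in Saline 2 and Saline 3. In this pair of genes Saline 1 was the high Saline rat, and in ENSRNOG00000016164 it was the low one. With CPM + 0.1, the gap ratios of the 3 genes were 5.91, 18.5 and 5.42.

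A further 2 genes had all CPPE rats high without this line between the cocaine groups. For ENSRNOG00000052828 these rats had 37, 72 and 64 counts, nCPPE 1 and Saline 3 had 37 each, and nCPPE 2, nCPPE 3 and Saline 1 had 0. Saline 2 had 2 counts. Its nCPPE rats therefore held both levels, at 1.10, 0 and 0 CPM, although the CPPE rats, at 1.16, 1.84 and 2.16 CPM, ranked above them.

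ENSRNOG00000054418 was the gene with the most high rats. Its low rats were Saline 1 and Saline 2, at 0.899 and 1.58 CPM. Saline 3 was at 8.37 CPM, the CPPE rats at 7.93, 7.47 and 15.4 CPM, and the nCPPE rats at 12.0, 6.69 and 6.71 CPM. With Saline 2 left out only Saline 1 is low, so the pattern then rests on a single animal. The gap ratio of 4.05 was also the lowest of the 16, and with TMM-scaled library sizes (trimmed mean of M values, an estimate of the effective library size) it fell under 4.

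The most frequent pattern joined rats of all 3 groups. Saline 2, CPPE 1, CPPE 3 and nCPPE 2 were high and the other 5 rats low in 4 of the 16 genes, while the other patterns held 2 genes in 1 case and 1 gene in 10 cases. ENSRNOG00000028077 had 4.15 CPM in Saline 2, 4.92 and 9.04 CPM in CPPE 1 and CPPE 3, and 5.29 CPM in nCPPE 2. In the low rats it was at 0.933 CPM (Saline 1), 0.721 CPM (Saline 3), 0.256 CPM (CPPE 2), 0.653 CPM (nCPPE 1) and 0.803 CPM (nCPPE 3). CPPE 3 was the highest and CPPE 2 the lowest of the 9, so the extremes of this gene fell in the same treatment group.

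ENSRNOG00000029586 had the same high and low rats, at 6.66 CPM in Saline 2, 3.83 and 5.19 CPM in CPPE 1 and CPPE 3 and 5.09 CPM in nCPPE 2. Its low rats were between 0.180 CPM in Saline 3 and 0.864 CPM in Saline 1. The lowest high rat was 4.43-fold above the highest low rat, on 122 and 25 counts. For ENSRNOG00000028077 that fold was 4.45, on 121 counts in Saline 2 and 27 in Saline 1.

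The pattern recurred in 2 genes with fewer reads. ENSRNOG00000037668 had 94, 92, 131 and 106 counts in Saline 2, CPPE 1, CPPE 3 and nCPPE 2, and 4 to 15 counts in the low rats. ENSRNOG00000039749 had 50, 30, 56 and 44 counts in the same 4 rats and 1 to 3 counts in the others. CPPE 2 again had the lowest value of both genes. Pearson's r of log2(CPM + 0.1) between these 4 genes over the 9 rats was 0.944 to 0.984 in the 6 pairs. The genes were selected on the same cut and share the same libraries, so these r describe how alike they were and carry no test.

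At a lower limit this pattern took in many more genes. With a gap ratio of at least 2 in place of 4, which was chosen after the values had been seen, 113 genes had 2 levels in 39 patterns, and 50 of them (44.2%) were high in exactly Saline 2, CPPE 1, CPPE 3 and nCPPE 2. The next most frequent patterns held 7 genes, 29 patterns held 1 gene, and 0 genes had the mirrored pattern with these 4 rats low. Most of the 39 patterns likewise had 0 mirrored genes. At a gap ratio of at least 3 the pattern held 19 of 35 genes. Of all 15555 genes with enough counts to be tested, 404 (2.60%) ranked these 4 rats above the other 5 by any margin, and 184 ranked them below.

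**Figure D3:**
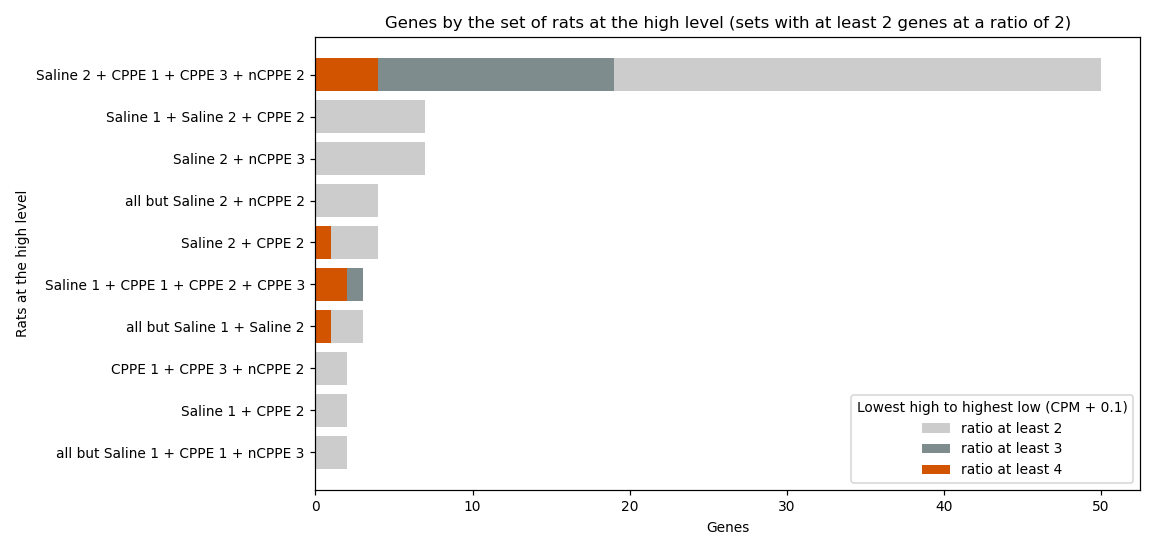
Number of genes for each set of rats at the high level, for sets with at least 2 genes at a gap ratio of 2; grey, dark and orange mark gap ratios of at least 2, 3 and 4. The set of Saline 2, CPPE 1, CPPE 3 and nCPPE 2 holds 50 genes, 19 and 4 of them at the higher limits, and the next sets hold 7.

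The 46 genes of this pattern outside the 16 had gap ratios of 2.00 to 3.76. Over all 50, the highest value was in CPPE 3 for 28 genes, in Saline 2 for 20, and in CPPE 1 and nCPPE 2 for 1 each. CPPE 1 was the lowest of the 4 high rats in 32 of the 50. Among all rats CPPE 2 was the lowest in 23 genes, Saline 3 in 13, nCPPE 3 in 9, nCPPE 1 in 3 and Saline 1 in 2. The highest CPM of a gene ran from 0.878 to 15.5 with a median of 3.34. CPM does not take gene length into account, so this range says how many reads support the genes and not how abundant their transcripts are.

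**Figure D4:**
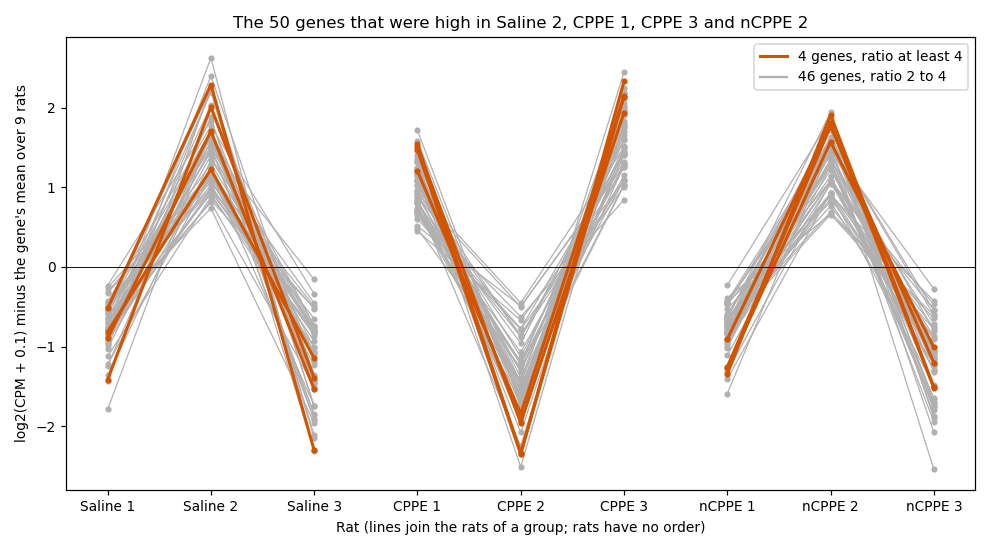
log2(CPM + 0.1) minus the gene's mean over the 9 rats for the 50 genes high in Saline 2, CPPE 1, CPPE 3 and nCPPE 2; orange lines are the 4 genes with a gap ratio of at least 4, grey lines the 46 with 2 to 4. CPPE 3 holds the highest value in 28 genes and CPPE 2 the lowest in 23.

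With Saline 2 left out, 101 genes had a gap ratio of at least 2 over the other 8 rats, and 54 of them (53.5%) were high in CPPE 1, CPPE 3 and nCPPE 2. They included all 50, which is no further support, since leaving out a rat cannot lower the ratio of a given cut. In 39 of the 54 Saline 2 was at or above the lowest of these 3 rats, in 15 it lay inside the gap and in 0 at or below the highest low rat. The 4 high rats had totals of 29142265 to 31891710 counts and the 5 low rats of 27724289 to 39067715.

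The first component of the 8 rats other than Saline 2 followed this pattern only in part. Genes of the pattern enter this component, and without them it no longer held the 3 high rats above all low rats. On the first component of the 8 rats other than Saline 2, over all 15555 tested genes (30.3% of the variance), nCPPE 2 had a score of 29.6, CPPE 1 of 16.0 and CPPE 3 of 15.0. The rats low for the pattern followed, with nCPPE 1 at 2.04, Saline 3 at -6.52, Saline 1 at -7.84, nCPPE 3 at -22.3 and CPPE 2 at -25.9. The 3 high rats thus had the highest scores. With the 50 genes removed (26.8% of the variance) nCPPE 2 and CPPE 1 were again highest, at 27.9 and 12.1, but nCPPE 1 at 6.46 lay just above CPPE 3 at 6.13. What this component stands for, and its part in the 2 levels, was not tested, because no identifier could be matched to a cell type marker.

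**Figure D5:**
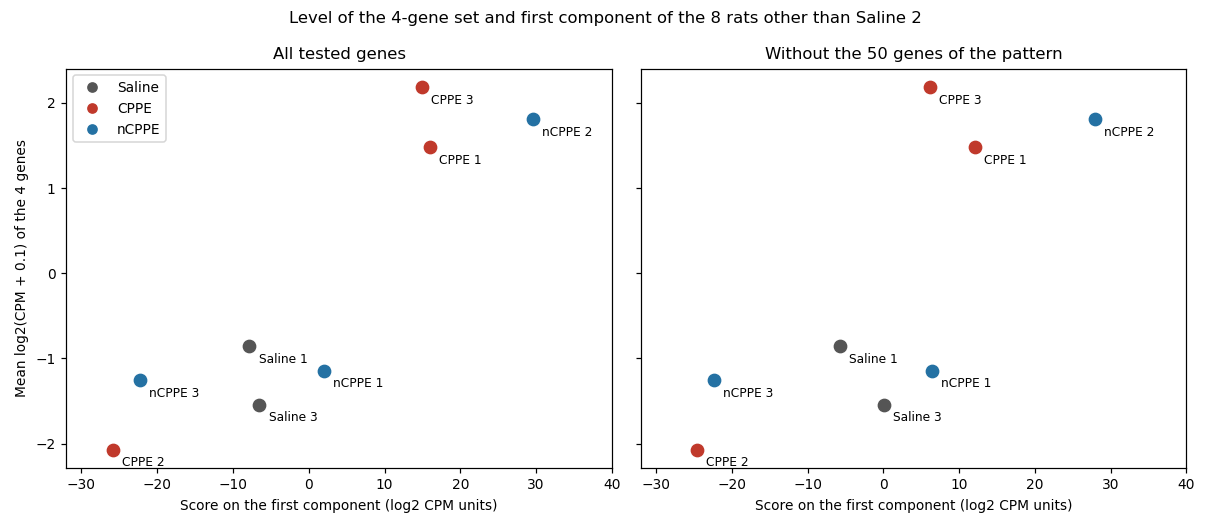
Mean log2(CPM + 0.1) of the 4 genes with the shared pattern (vertical axis) against the score on the first component of the 8 rats other than Saline 2 (horizontal axis), from all tested genes on the left and without the 50 genes of the pattern on the right. CPPE 1, CPPE 3 and nCPPE 2 lie at 1.48, 2.19 and 1.81 on the vertical axis, and the other 5 rats between -2.07 and -0.86.

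The remaining 7 genes each had a pattern of their own. In ENSRNOG00000010079 the high rats were Saline 2, Saline 3 and nCPPE 2, at 9.47, 12.5 and 17.9 CPM, and the low rats were at 0.830 to 1.83 CPM, so that all CPPE rats were low. The lowest high rat was 5.18-fold above the highest low one, on 276 and 57 counts. In ENSRNOG00000015418 only Saline 2 and CPPE 2 were high, at 3.88 and 4.02 CPM, with the other rats at 0.0980 to 0.795 CPM. The low level of this gene was itself uneven, since Saline 1 had 23 counts where nCPPE 2 had 3.

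Saline rats held both levels in 3 of the remaining 5 as well. ENSRNOG00000018045 was high in Saline 2, Saline 3 and CPPE 3, with 31, 18 and 21 counts, and had 0 to 2 counts in the other 6 rats. ENSRNOG00000037364 was high in Saline 1 and CPPE 3, with 35 and 36 counts, beside 2 to 6 counts elsewhere. Its lowest high rat was 7.88-fold above its highest low rat, CPPE 2.

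ENSRNOG00000005780 was high in Saline 1 and nCPPE 3, with 35 and 22 counts. CPPE 2 had 2 counts of it and the other 6 rats 0, so all CPPE rats were low.

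Finally, 2 genes had no high Saline rat. ENSRNOG00000019050 was high in CPPE 1, CPPE 3, nCPPE 1 and nCPPE 3, with 16, 22, 41 and 26 counts, and had 0 or 1 count in the other 5. ENSRNOG00000058664 was high in CPPE 2 with 67 counts and in nCPPE 1 with 33. It had 5 counts in nCPPE 2 and 0 in the other 6 rats. In both genes each cocaine group held both levels, so neither followed the preference.

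The group comparisons of all genes give the background for these patterns. They share rats with each other, and the members were chosen for large differences between rats, so their numbers are set beside the background and nothing is read from them. The CPPE rats lay wholly above the nCPPE rats in 5 of the 16 genes, beside 3.38% of the 15555 tested genes, and wholly below in 0, beside 3.9%. The 5 include ENSRNOG00000052828 and ENSRNOG00000037364, whose gap does not part these groups, and the latter was not among the tested genes. CPPE 1 and nCPPE 1 had equal counts in both, 37 each in the former and 3 each in the latter. Their order there rests only on the totals of the 2 rats. CPPE rats lay wholly above or below Saline rats in 0 members, beside 3.35% and 1.98% of tested genes.

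The nCPPE rats lay wholly above the Saline rats in 0 members, beside 2.71%, and wholly below in 2, ENSRNOG00000016164 and ENSRNOG00000018045, beside 1.53%. The 6 cocaine rats lay wholly above or below the Saline rats in 0 members, beside 0.694% and 0.347%. Saline rats and cocaine rats therefore overlapped in every member.

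In edgeR's quasi-likelihood test 13 of the 16 genes had enough counts to be tested. The other 3 were high in only 2 rats each. With an adjusted p below 0.05 over all genes, edgeR called 0 members and 0.0% of the 15555 genes in each of the 4 comparisons. At an unadjusted p below 0.05 edgeR had 3 members, of 84 genes in all, between CPPE and nCPPE rats. Against the Saline rats it had 2 members of 139 genes for CPPE, 4 of 179 for nCPPE and 3 of 193 for all cocaine rats. These numbers depended strongly on Saline 2. Without that rat edgeR had 4 members of 556 genes between CPPE and nCPPE rats. Against the remaining Saline rats it then had 1 of 929 for CPPE, 5 of 964 for nCPPE and 1 of 1055 for all cocaine rats. Of the 13, 11 had a higher fitted level in CPPE than in nCPPE rats and 2 a lower one, with a median log2 difference of 1.08 beside -0.00 over all tested genes. Against Saline the median was 0.84 for CPPE and -0.31 for nCPPE rats, beside -0.01 and -0.01 over all tested genes. Higher and lower members against Saline were 11 and 2 for CPPE, 4 and 9 for nCPPE and 6 and 7 for all cocaine rats. The share of all tested genes with a higher level is not given here, so these directions have only the medians as background. The 11 that were higher in CPPE than in nCPPE rats include the 4 genes that were high in Saline 2, CPPE 1, CPPE 3 and nCPPE 2, so 1 set of rats counts 4 times.

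DESeq2 called 2 of 15553 genes (0.0129%) for CPPE against nCPPE and 2 (0.0129%) for nCPPE against Saline. In both comparisons these were ENSRNOG00000016164 and ENSRNOG00000029386. For ENSRNOG00000016164 the log2 difference of CPPE against nCPPE was 3.75 ± 0.76 (SE) in edgeR, with an adjusted p of 1.0, and 3.76 in DESeq2, with an adjusted p of 0.000541. That DESeq2 call was lost in 4 of the 9 fits that left out 1 rat, namely those without Saline 2 (adjusted p 0.0562), CPPE 1 (0.176), CPPE 2 (0.0526) or nCPPE 3 (0.0699). The direction was the same in all 9.

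For ENSRNOG00000029386 the DESeq2 call depended on how the model was written. With Saline as the reference level the adjusted p was 3.13e-08, and with a coefficient for each group, an option added after the data had been seen, it was 1.0 in DESeq2. The nCPPE rats were all at 0 counts, so no fitted fold change of this gene is a bound and the counts above stand in its place. Of the 9 DESeq2 fits with 1 rat left out, 3 called this gene for CPPE against nCPPE (those without Saline 1, nCPPE 2 or nCPPE 3). Another 3 did not, with adjusted p of 0.924 without Saline 2 and 1.0 without Saline 3 or nCPPE 1, and the 3 that left out a CPPE rat gave no adjusted p. In edgeR the unadjusted p was 0.0114 and the adjusted p 1.0. For nCPPE against Saline, 2 of the 9 such DESeq2 fits called ENSRNOG00000016164, 6 did not and 1 gave no adjusted p. For ENSRNOG00000029386 in that comparison 2 called it, 3 did not and 4 gave no adjusted p.

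Genes close to the limit of 4 also had high rats from different groups. Just inside were ENSRNOG00000054418 with a gap ratio of 4.05, ENSRNOG00000029586 with 4.07 and another gene with 4.10. Just outside was ENSRNOG00000059957 with 3.88, high in Saline 2, Saline 3, nCPPE 2 and nCPPE 3 at 0.784 CPM or more, beside 0.128 CPM or less in the others. ENSRNOG00000012067 followed with 3.78, high in Saline 2, Saline 3, CPPE 3 and nCPPE 2 at 5.26 CPM or more, beside 1.32 CPM or less. No member had the pattern of either gene. The next gene, with 3.76, had the pattern of Saline 2, CPPE 1, CPPE 3 and nCPPE 2.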

How the data were processed

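Messenger RNA was measured in 36 libraries, 4 technical replicates from each of 9 rats. The authors deposited whole-number read counts for each Ensembl identifier, without normalization, made with bcl2fastq 2.18.0.12, STAR and HTSeq 0.5.3, per the submitters' processing notes. The libraries were strand-specific and made from polyadenylated RNA, per the labels' protocols. The sources used here do not give the STAR version, genome build, annotation or strand setting, so genes that overlap another gene, or have a near-identical copy, carry uncertain counts. Technical replicates of a rat differed by no more than sampling noise (chi-square per degree of freedom 1.00 to 1.02 over genes with at least 40 counts) and were summed, so that each rat is 1 sample. Library totals were 6771828 to 9961469 counts, and 10009 of 32402 identifiers had no count. Nothing in the labels says how the rats were assigned or whether they were processed together.

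CPM used rat totals. Group tests used edgeR 4.0.16 (filterByExpr, TMM, quasi-likelihood F-test over all 9 rats with group as factor) in R 4.3.3, with Benjamini-Hochberg adjustment over 15555 genes. DESeq2 1.42.0 was run on the same genes. Standard errors in edgeR are the log2 difference divided by the square root of F. Components are of log2 CPM with a prior count of 2. The selection and the tests were tested on simulated data. For the selection, the simulated levels lay further apart, and at higher CPM, than in most members. Genes with few counts or near the limit were therefore not covered. The selection rule, its members and the lists were chosen with earlier results of these data known. Genes named are those with the highest CPM or the largest gap ratio, those that follow a group line and those nearest the limit, with at most 2 identifiers a statement in each direction. No gene list, cell type marker, position or sequence is given, since 0 identifiers could be matched to them. Alternatives were other scaling, offset, ratio, floor, single technical replicates, each rat left out, the replicate number as a block, and DESeq2.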

Additional observations from a re-analysis of the deposited data

How the results depend on the processing

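The number of genes with 2 levels, 16, depended on the limits. It was 15 with TMM-scaled library sizes, 3 with an offset of 0.5 CPM, 35 with a ratio of at least 3, 1 with at least 8, 10 with a floor of 1 CPM, 113 with a ratio of at least 2 and 602 with at least 1 rat on a side. Single technical replicates gave 13 to 15 genes, 7 to 11 of them among the 16. Of the 16, 7 stayed under 2 CPM in every rat, and with an offset of 0.5 CPM 13 gap ratios were under 4. A larger offset lowers every gap ratio, also in genes with more counts, and the part of depth was not tested. Leaving out 1 rat gave 15 to 27, the highest without CPPE 1, and a member can then be lost only where fewer than 2 rats are left on a side, since its gap ratio cannot fall. Leaving out 1 rat put the number of genes with the shared pattern between 50 and 73, again highest without CPPE 1. This range does not test the pattern, since leaving out a rat cannot lower the ratio of a given cut. Of 240 recomputed gap ratios 40 were under 4 and 240 above 1. The 240 include 144 with 1 rat left out, which cannot fall, so that 0 of these were under 4 was fixed in advance. Under 4 were 26 of 64 in single technical replicates, 13 of 16 with the 0.5 CPM offset and 1 of 16 with TMM. With the rat number as a replicate block edgeR again called 0 genes in all 4 comparisons (unadjusted p below 0.05 for 64, 123, 130 and 162). The numbers pair no animals in the labels, and deviations of same-numbered rats correlated at 0.07, -0.45 and -0.13 for CPPE with nCPPE, at 0.19, 0.26 and 0.07 for Saline with nCPPE and at -0.07, -0.06 and -0.01 for Saline with CPPE. edgeR called 0 genes in every fit that left out 1 rat. DESeq2 called 2, 0, 2 and 1 genes in the 4 comparisons, 2, 0, 2 and 0 of them members, and with a coefficient for each group 1 gene in 3 comparisons, 1 of them a member in each of 2. With 1 rat left out, DESeq2 called 0 to 5 genes between CPPE and nCPPE (most without Saline 1). Against Saline it called 0 to 12 genes for CPPE (most without Saline 2), 0 to 15 for nCPPE (most without Saline 2 or Saline 3) and 0 to 27 for cocaine (most without Saline 2). Members among them were 0 to 3, 0 to 2, 0 to 1 and 0 to 1, with 0 in all 4 comparisons without Saline 2, without CPPE 1 or without CPPE 2. The cause was not tested.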

Other observations

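Genes that set a single rat apart were far more numerous than the 16. With 1 rat allowed on a side, 586 further genes had a gap ratio of at least 4. In 578 of them Saline 2 alone was low, in 4 Saline 2 alone was high, and in 4 nCPPE 3 alone was high. In 0 genes was any of the other 7 rats alone on a side.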
